A study of Mus musculus with 2 samples.

Results

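Intergenic CTCF peaks that lay just beyond the 3' ends of protein-coding genes were examined in the liver of newborn mice. A peak was taken from the optimal peak list on chromosomes 1 to 19 when its summit lay in no annotated gene, more than 1 kb from every transcript start and at most 5 kb downstream of the 3' end of a protein-coding gene (GENCODE M21). These criteria use position only. They gave 2803 of 55759 peaks, 5.03% (95% interval 4.85 to 5.21), and 15.0% of the 18658 intergenic peaks more than 1 kb from a start. The gene of a peak is the protein-coding gene whose 3' end is nearest behind the summit. The first protein-coding gene beyond the summit lay on the same strand at 1732 peaks, called tandem here, and on the opposite strand, so that its own 3' end faced the peak, at 1070, called converging. The remaining peak, downstream of Ptchd3 on chromosome 11, had no further protein-coding gene before the end of the chromosome.

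The data are CTCF ChIP-seq peak lists on mm10 from strain B6NCrl mice at postnatal day 0, with 2 biological replicates of 1 untreated group. The tissue was pulverized liver pooled over several dissections, of mice whose sex was not collected. The labels name a single biosample and donor for the pair of replicates. Differences between them may thus be technical only, and no conditions can be compared. A control experiment named in the labels was not analysed here, and the depth of the libraries is unknown because the files used hold no read counts.

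CTCF recognises DNA through a row of zinc fingers, and its motif is not symmetric, so each bound site has a direction. It halts the ring-shaped cohesin complex as cohesin extrudes chromatin loops, and loop anchors in mammals tend to carry motifs that point toward each other. Downstream of a gene's 3' end, RNA polymerase II runs on past the polyadenylation site before it is released. The sequence there is shared with the promoter side of the next gene when neighbours are in tandem, and lies between facing gene ends when they converge.

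The sequences at the strongest of these peaks are shown first, because the direction of the core is read from them. The CTCF core is a motif of 14 bases that was sought on both strands, wholly within 50 bp of the summit and with at most 2 mismatches. Capitals mark the best match. Each sequence comes from the RefSeq copy of GRCm38.p6, the assembly of mm10, and is written 5' to 3' along the strand of the gene behind it. A core is said to run along the gene when it lies on the gene's strand, and against it when it lies on the opposite one.

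The 5 strongest tandem peaks with a core lay behind Gltp (chr5:114667699-114667752, minus strand), Kcnk18 (chr19:59239612-59239709, plus), Asb10 (chr5:24530180-24530233, minus), Stmn1 (chr4:134478160-134478213, plus) and Ivd (chr2:118883553-118883606, plus). Kcnk18 has 2 equal matches. The cores of Gltp, Kcnk18 and Asb10 run along the gene, and those of Stmn1 and Ivd against it.
Gltp: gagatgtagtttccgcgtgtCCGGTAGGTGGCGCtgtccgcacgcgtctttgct
Kcnk18: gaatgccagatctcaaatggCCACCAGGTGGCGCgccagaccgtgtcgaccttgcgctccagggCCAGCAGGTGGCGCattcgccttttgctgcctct
Asb10: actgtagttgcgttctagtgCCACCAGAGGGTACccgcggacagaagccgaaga
Stmn1: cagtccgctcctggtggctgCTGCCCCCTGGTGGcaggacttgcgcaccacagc
Ivd: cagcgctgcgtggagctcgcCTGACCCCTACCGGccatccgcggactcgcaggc

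The 5 strongest converging peaks with a core lay behind Shmt2 (chr10:127512998-127513051, minus strand), Rfng (chr11:120776256-120776309, minus), Slc17a9 (chr2:180745405-180745516, plus), Aldh9a1 (chr1:167370048-167370101, plus) and Tef (chr15:81831537-81831590, plus). Slc17a9 has 2 equal matches, the first along and the other against the gene. The core of Shmt2 runs against the gene and those of Rfng, Aldh9a1 and Tef along it.
Shmt2: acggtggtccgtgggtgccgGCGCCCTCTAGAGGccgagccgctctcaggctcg
Rfng: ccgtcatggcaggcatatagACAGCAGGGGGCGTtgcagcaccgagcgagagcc
Slc17a9: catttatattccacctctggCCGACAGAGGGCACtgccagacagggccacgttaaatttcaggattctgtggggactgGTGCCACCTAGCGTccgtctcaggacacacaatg
Aldh9a1: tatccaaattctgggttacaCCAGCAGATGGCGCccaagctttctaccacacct
Tef: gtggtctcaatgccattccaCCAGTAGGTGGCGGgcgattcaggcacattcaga

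The strongest peak without the core lay between S1pr5, a sphingosine-1-phosphate receptor gene, and Keap1, which encodes the adaptor that marks the stress factor Nrf2 for degradation. Its summit was 1367 bp beyond the end of S1pr5, and its signal was 491.8, with 257.4 in replicate 1 and 236.1 in replicate 2. The bases within 50 bp of its summit (chr9:21241495-21241595, minus strand) hold no match with fewer than 5 mismatches and are printed without capitals.
S1pr5: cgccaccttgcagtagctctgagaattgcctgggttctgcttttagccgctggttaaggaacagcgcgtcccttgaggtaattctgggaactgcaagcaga

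Signal is the value the authors deposited for each peak. Its scale is not stated, so it is compared only within a list, and the values of the optimal list and of the replicate lists are not on one scale. The strongest tandem peak, 1657 bp beyond the end of Gltp, which encodes a glycolipid transfer protein, had a signal of 610.9 (311.6 in replicate 1, 301.4 in replicate 2). The peak 2283 bp beyond Kcnk18, a background potassium channel gene, had 589.5 (300.4 and 292.7). Behind Asb10, an ankyrin repeat protein gene, the signal was 575.0 (307.0 and 272.5). These 3 peaks ranked between 20 and 42 in the optimal list.

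Stmn1, which encodes the microtubule-destabilising protein stathmin, had a peak of signal 574.5 (305.8 and 270.3) at 4365 bp. Ivd, a mitochondrial dehydrogenase of leucine breakdown, had one of 549.7 (282.7 and 268.8) at 656 bp. The others among the 8 strongest tandem peaks lay behind Srl (542.3; 289.2 and 254.1), the kisspeptin receptor gene Kiss1r (536.1; 292.1 and 246.4) and the tetraspanin gene Tspan15 (532.1; 253.8 and 279.9). These 8 peaks ranked between 20 and 119 in the optimal list.

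Among converging peaks the strongest lay almost midway between the facing ends of Shmt2, which encodes the mitochondrial serine hydroxymethyltransferase, and Stac3, a gene of muscle excitation-contraction coupling. It was 4122 bp from the end of Shmt2 and 4178 bp from that of Stac3. Its signal was 627.3, rank 12 of the list, with 327.3 in replicate 1 and 303.5 in replicate 2. The peak behind Rfng, a fringe glycosyltransferase of the Notch pathway, had 589.3 (291.8 and 299.4), and the one behind Slc17a9, a vesicular nucleotide transporter gene, had 561.9 (287.7 and 274.8). Further strong converging peaks lay between the ends of Aldh9a1 and Mgst3, which encode an aldehyde dehydrogenase and a microsomal glutathione transferase (550.7; 280.6 and 274.1), and behind the bZIP transcription factor gene Tef (526.3; 280.3 and 246.0).

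The peak behind 1600014C10Rik, 3560 bp from its end, had a signal of 524.9 (265.6 and 260.6). The facing ends of the related genes Cmtm6 and Cmtm7 held a peak of signal 520.1 (269.7 and 252.1) at 3625 and 3867 bp. Cpn2, which encodes the regulatory subunit of the liver-made enzyme carboxypeptidase N, had a peak of 482.5 (249.2 and 234.0) that lacked the core. Both ends lay within 5 kb of the summit at 262 converging peaks, of which those at Shmt2, Aldh9a1 and Cmtm6 were the strongest.

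Some strong peaks lay close to the annotated end. Within 500 bp, the strongest tandem ones were behind Zfp703 (480.3 at 432 bp), the autophagy gene Atg2a (460.1 at 80 bp) and the paxillin gene Pxn (455.5 at 419 bp). The strongest converging ones were behind the interleukin receptor gene Il12rb1 (479.1 at 302 bp), Rap1gap (474.3 at 449 bp) and the flotillin gene Flot2 (465.8 at 109 bp). Flot2 lacked the core and the other 5 carried it. At the outer limit, the last peaks inside 5 kb lay behind Dmp1 (5000 bp, signal 128.6), Rbmxl2 (4998 bp, 82.7) and Tpmt (4997 bp, 241.0). The first outside lay behind Cish (5002 bp, 19.8), Ddx6 (5005 bp, 24.2) and Tnfsf13b (5006 bp, 141.2).

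The median signal of all 2803 peaks was 124.1 (quartiles 40.5 and 260.1, lowest 4.38, highest 627.3). The median was 125.4 for tandem and 119.9 for converging peaks, with nearly the same quartiles (40.8 and 262.7; 39.8 and 254.6). It was 93.7 at 1847 intergenic peaks 1 to 5 kb upstream of a gene and not within 5 kb behind a gene end, and 80.7 at the 14008 other intergenic peaks. The order was the same in the replicates' own lists, with medians of 62.8 and 61.1 downstream of gene ends, 47.8 and 46.2 upstream of genes and 40.7 and 39.5 elsewhere. The strongest 10% of the whole list took in 503 of the peaks downstream of gene ends (17.95%), 13.2% of those upstream and 9.75% of the others.

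Nearly all of these peaks had a counterpart in the full list of each replicate, which holds 300000 peaks. A summit within 100 bp was present in both full lists at 2741 (97.8%), in replicate 1 alone at 28 and in replicate 2 alone at 30. The other 4 lay behind Wdsub1, Slc17a5, Ifit3 and D930007J09Rik, with signals of 8.14, 6.47, 5.13 and 5.10, at the weak end of the list. Over the 2741 matched peaks Spearman's rho between the replicate signals was 0.979. It is a description across peaks of a list that was itself made from both replicates. For the same reason, and because the full lists are far longer, a high share of matched peaks was built in. A summit of the conservative list lay within 100 bp of 2544 peaks (90.8%).

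**Figure D1:**
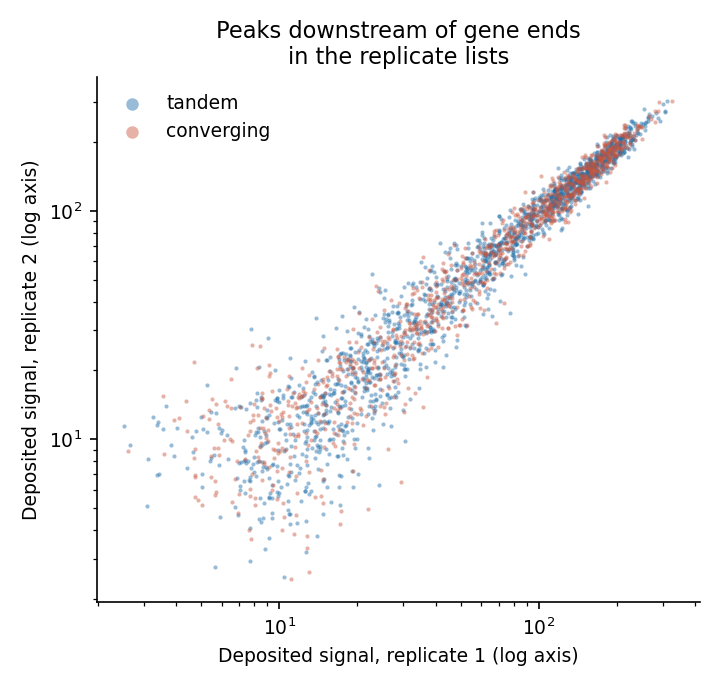
Deposited signal of the peaks downstream of gene ends in replicate 1 (horizontal, log axis) and replicate 2 (vertical, log axis), 1 point for each of the 1694 tandem and 1046 converging peaks matched in both lists. The points form 1 band that is wider at the weak end, and the 2 classes overlie each other.

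Sequence downstream of gene ends held more CTCF peaks per base than other intergenic sequence. The bases that meet the same criteria come to 60.6 Mb, with 46.2 peaks per Mb (exact Poisson 95% interval 44.5 to 48.0). Upstream of genes the density was 41.5 per Mb and in the other intergenic sequence 12.8 per Mb. The ratio of downstream to other sequence was 3.61 (3.47 to 3.76), and 3.59 and 3.61 in the replicates alone. Downstream over upstream it was 1.11 (1.05 to 1.18). Base composition moved with these classes: GC was 43.7% downstream, 43.2% upstream and 40.6% elsewhere, and repeats covered 34.6%, 36.9% and 39.4%. Their part in the difference was not tested.

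Tandem and converging sequence had similar densities, 46.7 and 45.5 peaks per Mb, a ratio of 1.03 (0.951 to 1.11). The converging share was 38.2% of the peaks (replicates alone 37.5% and 38.5%) and 38.8% of the sequence in which they could lie. Thus the split of the peaks followed the split of the sequence within counting error.

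Density was lower over the farther 2500 bp than over the nearer 2500 bp in both classes. In tandem sequence it was 49.7 per Mb over the nearer 2500 bp and 43.4 over the farther 2500 bp, a ratio of 1.15 (1.04 to 1.26). In converging sequence it was 49.1 and 40.5 per Mb, a ratio of 1.21 (1.07 to 1.38). These ranges were chosen after the values in bins of 500 bp had been seen. The highest bin was the first 500 bp in converging sequence, with 56.4 per Mb (48.5 to 65.2), and 2001 to 2500 bp in tandem sequence, with 53.7 (46.5 to 61.7). The lowest bin lay at 3501 to 4000 bp in converging sequence (34.2, 26.5 to 43.5). Beyond it the converging density was 43.7 per Mb at 4001 to 4500 bp and 46.65 at 4501 to 5000 bp, so it did not fall steadily. Every bin of either class lay above the 12.8 per Mb of other intergenic sequence.

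**Figure D2:**
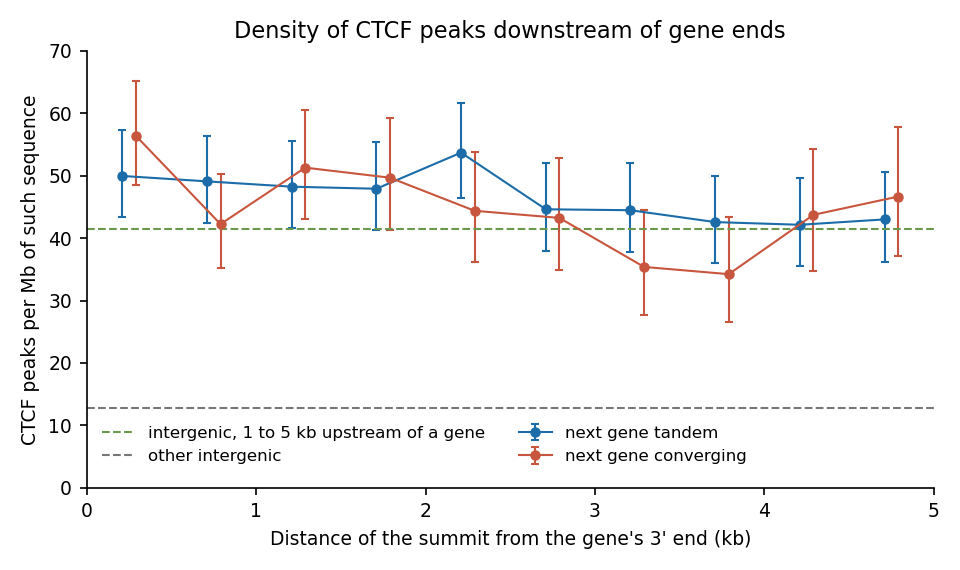
CTCF peaks per Mb (vertical) against distance of the summit from the 3' end of the gene in bins of 500 bp (horizontal, kb), for tandem and converging next genes. Bars are exact Poisson 95% intervals over peaks, and dashed lines mark 41.5 per Mb upstream of genes and 12.8 per Mb in other intergenic sequence; all 20 points lie above the lower line.

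The CTCF core was present at 2208 of the 2803 peaks, 78.8% (77.2 to 80.3), against 3.35% in the window moved by 1 kb. It was found at 79.3% of tandem and 77.9% of converging peaks, a difference of 1.48 points (-1.62 to 4.65). Other intergenic peaks carried it at 78.4%, which differed by 0.425 points (-1.27 to 2.05). Peaks upstream of genes carried it less often, at 74.99%, a difference of 3.79 points (1.32 to 6.29). GC within 100 bp of the summit had a median of 48.8% downstream of gene ends and 47.8% in either comparison class.

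Signal rose with the match to the core. The median was 269.7 at the 368 peaks with a perfect core, 176.8 at 908 peaks with 1 mismatch, 83.3 at 932 with 2 mismatches and 44.1 at the 595 without the core. Other intergenic peaks had lower medians at each step, 214.8, 114.9, 62.5 and 37.8. Peaks upstream of genes lay between these at each step, with 255.0, 148.2, 78.6 and 41.8, closer to the peaks downstream of gene ends. The higher signal relative to other intergenic peaks was also present among peaks with equally good cores, and was partly shared by peaks upstream of genes. Over all peaks, whatever the core, the upstream median of 93.7 lay nearer to the 80.7 of other intergenic peaks than to 124.1 downstream.

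Cores were also counted in the sequence itself, whether or not a peak lay there. There were 293.2 cores per Mb downstream of gene ends, 272.2 upstream and 181.5 elsewhere. Of the 400 perfect cores downstream of gene ends 92.0% had a summit within 50 bp of their midpoint, against 81.6% of 2134 elsewhere, a difference of 10.4 points (6.96 to 13.3). Of cores with 1 mismatch 44.5% had a peak against 21.9% elsewhere, a difference of 22.6 points (20.4 to 24.8). With 2 mismatches the shares were 7.21% and 3.11%, a difference of 4.10 points (3.70 to 4.53). Thus both the number of cores and the share of them with a peak were higher downstream of gene ends than in the other intergenic sequence.

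Sequence upstream of genes gave nearly the same shares as sequence downstream of gene ends. They were 88.9%, 43.1% and 7.15% at 0, 1 and 2 mismatches, and the interval of each difference from downstream sequence included 0 (widest -1.57 to 8.50 points, for perfect cores). Between tandem and converging sequence the interval of the difference excluded 0 only for cores with 2 mismatches, with 7.66% against 6.50% (1.16 points, 0.319 to 1.98). At 0 and 1 mismatches the differences were 2.89 points (-2.49 to 8.94) and -0.428 points (-4.80 to 3.92). Summits lay on repeat-masked bases at 26.5% of tandem and 23.1% of converging peaks, a difference of 3.42 points (0.107 to 6.64). The sequence itself was masked at 35.98% in the tandem and 32.3% in the converging class, so the classes were in the same order there.

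**Figure D3:**
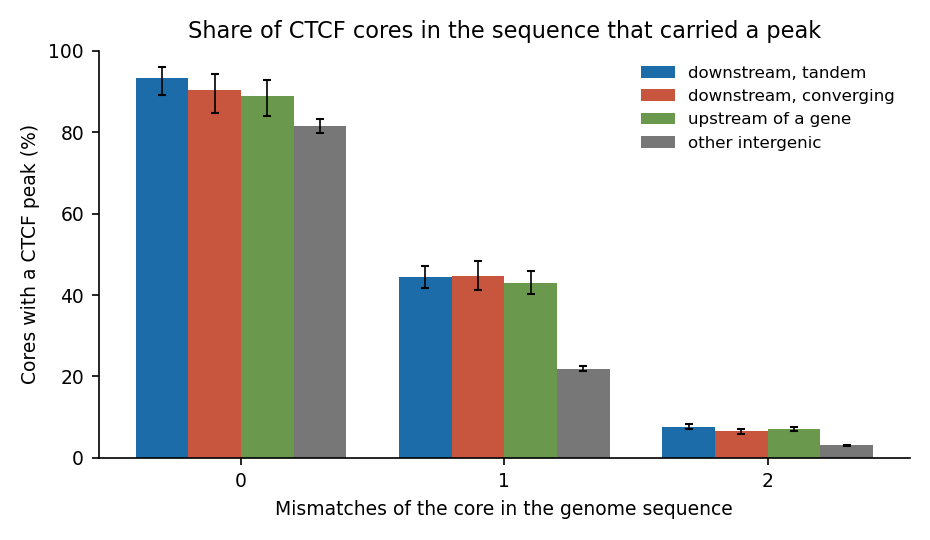
Share of CTCF cores in the genome sequence with an optimal summit within 50 bp (vertical, %), by mismatches of the core (horizontal), in downstream tandem, downstream converging, upstream and other intergenic sequence; error bars are exact binomial 95% intervals over cores. At 1 mismatch the first 3 bars lie between 43.1% and 44.8% and that of other intergenic sequence at 21.9%.

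Cores at tandem peaks pointed along the gene more often than against it. Among peaks with 1 best match, the core lay on the strand of the gene at 794 of 1335 tandem peaks, 59.5% (56.8 to 62.1; replicates alone 59.1% and 59.6%). It did so at 430 of 805 converging peaks, 53.4% (49.9 to 56.9; replicates alone 53.4% and 53.5%). Placement blind to strand gives 50%. By definition, a core along the gene also runs along the next gene at a tandem peak, but against it at a converging one. The classes differed by 6.06 points (1.73 to 10.4), and by 5.74 and 6.08 points in the replicates alone. How far that definition shapes the difference was not tested.

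That difference depended on which annotated genes counted as the next gene. When genes of every type were taken, the shares were 56.8% tandem and 57.7% converging, a difference of -0.927 points (-5.13 to 3.30). The switch moved 327 tandem peaks to the converging class, of which 259 had 1 best match, and 70.3% of these cores (64.3 to 75.8) ran along the gene. It moved 164 converging peaks to the tandem class, and 68 of the 121 cores with 1 best match among these ran along the gene (56.2%, 46.9 to 65.2). At the 1405 peaks that were tandem either way the share was 56.9% (53.9 to 59.9), and at the 906 that converged either way it was 52.9% (49.1 to 56.7).

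The lean along the gene was not limited to gene ends. At other intergenic peaks 56.4% of the cores (55.5 to 57.4) lay on the strand of the gene whose 3' end was nearest behind them. That 3' end was a median of 59764 bp away over all peaks of this class. At peaks upstream of genes the share was 54.7% (52.0 to 57.4). Tandem peaks exceeded the share of other intergenic peaks by 3.04 points (0.220 to 5.81), and converging peaks differed from it by -3.02 points (-6.60 to 0.529). Tandem peaks exceeded the share upstream of genes by 4.75 points (0.989 to 8.48). Neither comparison class was split by the direction of the next gene. Without that split, peaks downstream of gene ends gave 57.2% (55.0 to 59.3). In tandem sequence 50.1% of the cores without a peak lay on the strand of the gene, 9.34 points (6.50 to 12.1) below the cores at peaks, and in converging sequence 51.4% did, where the difference of 2.02 points had an interval that included 0 (-1.66 to 5.66).

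Perfect cores in the sequence leaned along the gene in both classes. Of the 235 in tandem sequence 63.0% (56.5 to 69.2) lay on its strand, and of the 165 in converging sequence 62.4% (54.6 to 69.8). Cores with 1 mismatch did so at 51.7% (48.9 to 54.4) and 50.4% (46.9 to 53.9). The preference of perfect cores was counted whether or not a peak lay there, although nearly all of them had one. Of the 32 without a peak, 68.8% (49.99 to 83.9) lay on the strand of the gene. With or without a peak, 56.1% (54.0 to 58.2) of the 2134 perfect cores in other intergenic sequence lay on that strand. Upstream of genes 53.2% (46.35 to 60.04) of 216 did.

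**Figure D4:**
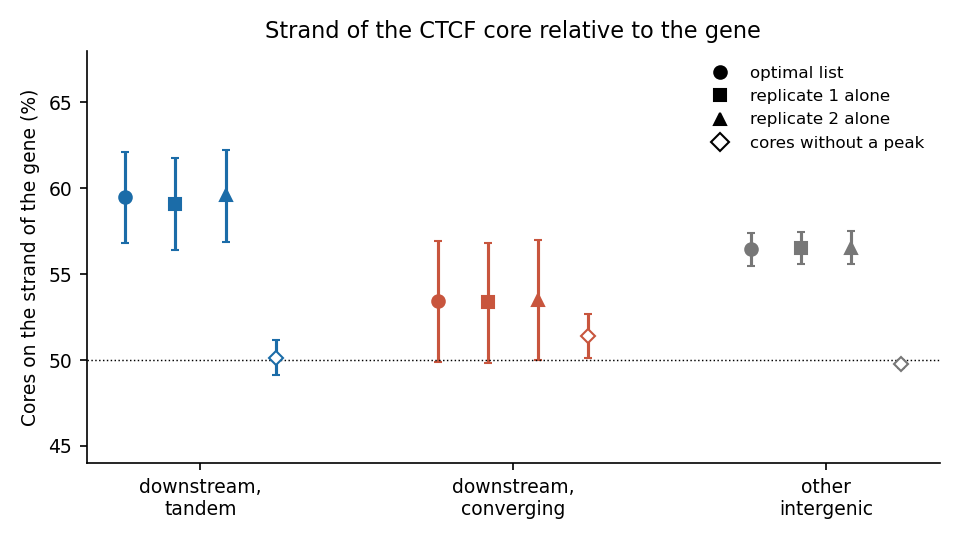
Share of cores on the strand of the gene (vertical, %, axis not from 0) at downstream tandem, downstream converging and other intergenic peaks in the optimal list and either replicate alone, with cores that had no peak as open diamonds. Bars are exact binomial 95% intervals over cores and the dotted line marks 50%; the filled tandem points lie between 59.1% and 59.6% and the converging ones between 53.4% and 53.5%.

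Within the tandem class the lean was larger where the next gene was far away and where the peak was strong. These divisions were made after the overall shares had been seen. They used protein-coding next genes only and were not repeated with next genes of every type, where the overall difference between the classes was absent. The share along the gene was 54.1% where the next gene began at most 5 kb away, 56.8% at 5 to 20 kb and 64.8% (60.7 to 68.8) beyond 20 kb. The last exceeded the first by 10.7 points (3.90 to 17.5). In converging pairs the shares were 51.3%, 51.7% and 56.7% over the same ranges, measured to the facing 3' end. Of tandem peaks above the median signal of all peaks downstream of gene ends 63.1% ran along the gene, against 54.7% of those below it, a difference of 8.40 points (3.08 to 13.7). For converging peaks these shares were 52.8% and 54.2%. Tandem and converging peaks thus differed by 10.3 points (4.57 to 15.97) above that median and by 0.555 points (-6.02 to 7.16) below it. Within 1 kb of the gene end the share was 63.4% for tandem and 55.3% for converging peaks. The tandem share there exceeded that at 1 to 5 kb by 5.21 points (-0.972 to 11.2).

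The peaks belonged to 2392 genes, 11.5% of the 20807 protein-coding genes on these chromosomes. Only 16322 genes had any sequence that met the criteria, and 14.7% of these had a peak. A single peak was present at 2035 gene ends, 2 at 306, 3 at 48 and 4 at Ano1, Cnot10 and Tfeb. Another annotated gene lay between the 3' end and the summit at 50 peaks.

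Tfeb, which encodes a transcription factor of lysosome biogenesis, converges with Mdfi and held its 4 peaks at 208, 1154, 3203 and 4758 bp. Their signals were 323.4 (158.6 in replicate 1, 165.7 in replicate 2), 354.9 (180.6 and 176.8), 247.8 (130.4 and 117.5) and 44.8 (21.9 and 22.2). The outermost peak was the weakest in both replicates, and its core was the only one of the 4 with 1 mismatch rather than 2. The cores are printed on the plus strand of GRCm38.p6 in order of distance, and the third runs against the gene. They lie in chr17:47792615-47792644, chr17:47793566-47793595, chr17:47795612-47795641 and chr17:47797158-47797187.
Tfeb at 208 bp: cactgaggCCACATGGTGGCGCtgcagcca
Tfeb at 1154 bp: ggttctgtCCACACGAGGGCGCacaggccc
Tfeb at 3203 bp: actggagtGCTCCCCCTGGAGGaggaagaa
Tfeb at 4758 bp: gtgcaggtCCAGAAGAGGGCGCtagagtgc

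Ano1, the gene of a calcium-activated chloride channel, is followed in tandem by Fadd. Its peaks at 1061, 1513, 2709 and 4730 bp had signals of 99.1 (47.9 and 49.6), 15.8 (6.37 and 8.21), 349.5 (186.2 and 163.3) and 182.5 (97.5 and 85.6). Their cores ran against, along, against and along the gene. Cnot10, which encodes a subunit of the CCR4-NOT deadenylase, is followed in tandem by Trim71. Its peaks at 738, 1945, 3500 and 4256 bp had signals of 37.8 (23.1 and 13.1), 328.9 (168.0 and 158.2), 145.3 (72.8 and 72.0) and 198.2 (108.4 and 91.8), and the nearer pair of cores ran against the gene while the farther pair ran along it. Each of the 3 gene ends thus held cores of both directions.

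**Figure D5:**
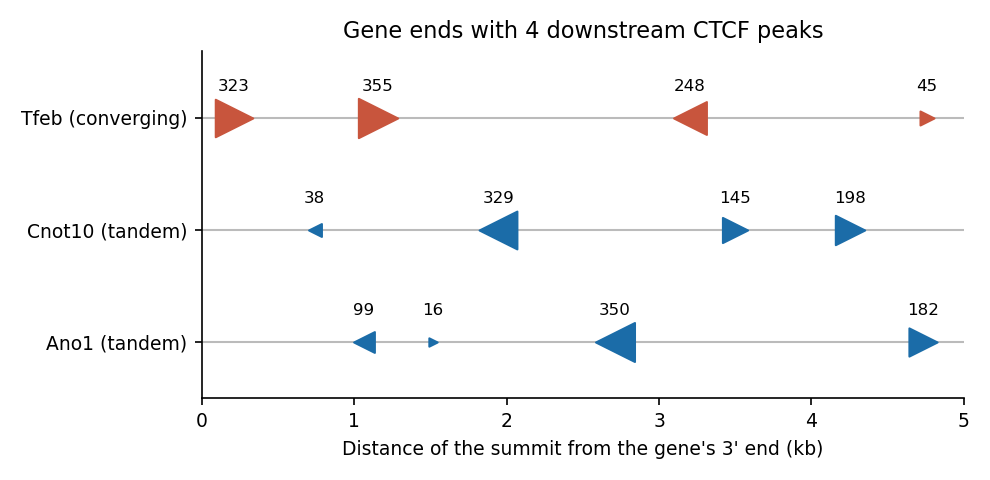
Peaks behind Tfeb, Cnot10 and Ano1 by distance of the summit from the 3' end (horizontal, kb); the area of a triangle is proportional to the deposited signal in the optimal list, printed above it as a whole number. Triangles that point right have the core on the strand of the gene and those that point left on the opposite strand, and all 3 gene ends hold both.

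Over all gene ends with more than 1 peak there were 411 neighbouring pairs, a median of 1405 bp apart. In 238 of them both peaks had 1 best core. The cores of a pair lay on the same strand in 56.3% (49.8 to 62.7), pointed away from each other in 26.9% (21.4 to 33.0) and toward each other in 16.8% (12.3 to 22.2). Blind placement gives 25% for each of the last 2.

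Genes with a downstream peak more often had a promoter peak as well. A summit within 1 kb of a transcript start of the gene was present at 44.02% of the 2392 genes and at 36.5% of the others, a difference of 7.52 points (5.43 to 9.64). Among genes with sequence that met the criteria the difference was 9.92 points (7.79 to 12.1). In 402 genes the strongest promoter peak and the strongest downstream peak each had 1 best core. These pointed toward each other in 75 genes (18.7%, 15.0 to 22.8), away from each other in 123 (30.6%, 26.1 to 35.4), both along the gene in 125 and both against it in 79. The promoter core ran along the gene in 49.8% and the downstream core in 61.7%. The product of these separate shares gives 19.1% toward and 31.0% away, and the counted shares lay within counting error of these.

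Gene groups of the liver and of 3' end formation were read against the 11.5% of all protein-coding genes, without a test. Of 26 factors of cleavage, polyadenylation and termination 2 had a downstream peak (7.69%, 0.946 to 25.1). Pabpn1, the nuclear poly(A) binding protein gene, had one of signal 261.0 (143.2 and 119.5) at 2424 bp over a perfect core. Papola, the poly(A) polymerase gene, had one of 97.1 (57.8 and 39.6) at 362 bp and one of 25.6 (16.9 and 8.41) at 1784 bp. The interval of the share includes 11.5% but is wide, as the genes are few, so it cannot show whether the group differs.

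Of 36 genes for secreted hepatocyte proteins 5 had a downstream peak (13.9%, 4.67 to 29.5). The strongest lay behind the apolipoprotein genes Apoa4 (292.0; 147.7 and 146.1; no core) and Apoh (148.2; 74.7 and 72.9) and between the inter-alpha-trypsin inhibitor genes Itih3 and Itih4 (57.1; 31.8 and 25.3). Of 20 hepatocyte enzyme genes 4 had one (95% interval 5.73% to 43.7%). These included Pck1, the gluconeogenic PEP carboxykinase gene (288.0 at 228 bp; 148.2 and 138.7), Tat, the tyrosine aminotransferase gene (170.5; 92.4 and 77.1), and Asl of the urea cycle (143.2 at 105 bp; 74.7 and 67.95). Both intervals include the share of all genes.

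Of 20 erythroid genes, chosen because the newborn liver still makes blood, 5 had a downstream peak (95% interval 8.66% to 49.1%). Slc25a37, which encodes the mitochondrial iron importer mitoferrin, had a peak of 252.8 (133.8 and 119.3) at 105 bp and one of 373.4 (186.5 in each replicate) at 3458 bp. Both had a perfect core along the gene, in chr14:69241725-69241754 and chr14:69238380-69238409 (minus strand of GRCm38.p6), shown because perfect matches paired at 1 gene end can be compared base by base.
Slc25a37 at 105 bp: tcatcttgCCAGCAGAGGGCGCtcatgtac
Slc25a37 at 3458 bp: tcaaaggaCCAGCAGGTGGCAGcagagagg

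The transferrin receptor gene Tfrc had a peak of 102.0 (53.2 and 47.7) at 2650 bp. Of 29 endothelial, stellate and macrophage genes 4 had a downstream peak (13.8%, 3.89 to 31.7), with the strongest at the collagen gene Col1a2 (245.3; 130.3 and 116.3), the VE-cadherin gene Cdh5 (216.2; 94.8 and 121.3) and the sinusoidal lectin gene Clec4g (140.2; 69.7 and 70.3). All 6 peaks of that group were tandem, a class that made up 61.8% of all peaks downstream of gene ends. A peak list cannot tell in which cell type of the liver a site was bound.

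Of 18 genes for CTCF and cohesin machinery 3 had a downstream peak (16.7%, 3.58 to 41.4). They were Ctcfl, the germline paralogue of CTCF (416.7 over a perfect core; 207.2 and 214.7), Smc3, a cohesin core subunit (362.7; 196.9 and 164.4), and Mau2, a subunit of the cohesin loader (58.8; 26.3 and 31.4). Of 33 imprinted genes only Ins2, an insulin gene of the Igf2 region, had one (158.2; 82.0 and 75.4), a share of 3.03% (0.0767 to 15.8). Of 67 replication-dependent histone genes 4 did (5.97%, 1.65 to 14.6), with the strongest behind Hist1h2bl (376.1; 189.7 and 186.0). Hist1h2bj followed with 216.2 (121.7 and 93.3) and Hist1h2bm with 44.6 (21.01 and 23.9), both without the core.

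Of 82 ribosomal protein genes 18 had a downstream peak (22.0%, 13.6 to 32.5). Of the 58 with sequence that met the criteria 31.0% had a downstream peak, against 14.7% of all genes with such sequence. On the same measure 17 erythroid genes gave 29.4% and 19 hepatocyte enzyme genes 21.05%. The remaining groups lay between 4.5% and 17.65%. The 18 ribosomal protein genes held 22 peaks, 10 tandem and 12 converging. A promoter peak was present at 11 of the 18 genes and at 48 of all 82, those 18 included. Over all protein-coding genes it was present at 44.02% of those with a downstream peak and 36.5% of the others. The 36.5% leaves out genes with a downstream peak, so it is not like the 48 of 82. The strongest downstream peak of the ribosomal protein genes lay behind Rps19, which encodes a protein of the small ribosomal subunit. It lay at 830 bp with a signal of 520.5 (264.0 and 258.4). It carried a perfect core along the gene, in chr7:24890620-24890649 (plus strand of GRCm38.p6), shown as the strongest peak of any of these gene groups.
Rps19: ctcttcggCCACTAGGTGGCAGctgctagc

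Rpl37a followed with 420.6 (209.2 and 211.5) at 3349 bp and Rps15a with 392.3 (198.2 and 196.0) at 1932 bp, each with a core of 1 mismatch along the gene. The ribosomal protein genes were the only group of the 9 whose interval lay wholly above 11.5%, and no group's interval lay wholly below it. Intervals treat genes as independent, and the lists were read side by side with no adjustment.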

How the data were processed

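The authors deposited narrowPeak lists on mm10, per the labels: 1 for each of 2 replicates, 1 pooled, and a conservative and an optimal list thresholded by irreproducible discovery rate from these, per the text deposited with the samples. The values are the deposited signal of each peak. Which aligner, peak caller and thresholds gave it is not given in the sources used here. Replicate lists end at exactly 300000 peaks, so the 57220 strongest of each were used as either replicate alone. Summits of the optimal list were matched against the full replicate lists. Summits (start plus deposited offset) were placed in GENCODE M21, with a gene's 3' end at the end of its longest annotated extent. Densities use all bases outside assembly gaps that meet the same criteria. Intervals are 95%: exact binomial (Clopper-Pearson) for shares, exact Poisson for densities, exact conditional binomial for their ratios, Newcombe for differences. They cover counting error over peaks, cores or genes, which are not replicates, and no p-value was computed. In intergenic comparison classes the gene is likewise the one whose 3' end is nearest behind the summit. Chromosome 18 was left out of the printed sequences. Members, lists and comparisons were chosen with earlier results of these data known. Named were the 8 strongest of each class, the 3 strongest within 500 bp, the 3 gene ends with most peaks, the 3 strongest between facing ends, the 3 strongest of each list and the 3 nearest to either side of the limit. The peaks at S1pr5, Ptchd3 and the 4 unmatched genes, and the sequences at Tfeb, Slc25a37 and Rps19, were added after their values were seen. Placement and core search were tested on a simulated chromosome. Python 3.11.15, numpy 2.4.6, pandas 2.3.3, scipy 1.17.1 and statsmodels 0.14.6 were used. Ahsp and Vsig4 were not matched among genes of chromosomes 1 to 19.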

Additional observations from a re-analysis of the deposited data

How the results depend on the processing

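Of 72 alternative values, 52 stayed close to the reported one: a share or ratio inside its 95% interval, a count within 1.5 times, or a strand difference whose interval still excluded 0. Among these were all values from the conservative list and from either replicate alone. The sign changed in 1 alternative, the next gene of any annotated type. There the strand difference between tandem and converging peaks was -0.927 points instead of 6.06, with an interval that included 0 (-5.13 to 3.30). The shares were 56.8% tandem and 57.7% converging, and 43.99% of the peaks converged. Limits of 2 and 10 kb gave 1348 and 4487 peaks, 6.01% and 16.6% of genes with one, and converging shares of 42.3% and 35.3%. Peaks over 2 kb from every start gave 10.4% of genes and 40.03% converging. The stronger 50% of the whole list gave 1753 peaks, 7.62% of genes, a density ratio of 4.24, the core at 86.7% and 62.1% of tandem cores along the gene. The core was found at 45.5% with at most 1 mismatch, at 93.3% with at most 3 and at 71.3% within 25 bp. No paired analysis was possible because there is 1 group. Depth is unknown, so weak peaks could be missed at either kind of gene end.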
